A study of Neurospora crassa with 12 samples.

Results

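A set of 164 Neurospora crassa genes was at least 4-fold higher 5 min after the addition of HSAF than before it, and was back within 2-fold of the starting level at 60 min. They were taken from 9729 annotated genes (locus tags that begin with NCU), of which 5452 reached a mean of 50 normalised counts in at least one time group. Of those, 446 were at least 4-fold higher at 5 min, 279 of which were still over 2-fold higher at 60 min and 3 of which were below 0.5 of the starting level. The members were selected on group means at 0, 5 and 60 min, with 5 added to each mean before ratios were taken, so the levels at those times describe the selection and are given with no test. The 30 min libraries entered the rule only through the scaling factors and the level floor, and they carry the tested comparison, although its HSAF-0 libraries are the ones the rule used.

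HSAF, the heat-stable antifungal factor, is an antifungal compound made by the bacterium Lysobacter enzymogenes. Wild-type mycelium of strain FGSC2489 received 40 µM HSAF, and RNA was taken at 0, 5, 30 and 60 min in 3 libraries each (HSAF-0, libraries A to C; HSAF-5, D to F; HSAF-30, G to I; HSAF-60, J to L). No solvent control was sampled at the later times, so the compound, its addition and the elapsed time cannot be told apart. The labels and the methods of the study give different culture ages and temperatures, and the study calls the 3 libraries of a group biological replicates without saying how cultures were divided among them. The p-values judge differences between group means against the spread between libraries within groups.

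In filamentous fungi a chemical or mechanical insult to the cell surface can open calcium channels and activate phospholipase C, which cleaves a membrane phosphoinositide into a soluble inositol phosphate and diacylglycerol. Calcium binds calmodulin and the calcineurin phosphatase, while sensors in the wall pass signals to a cascade of MAP kinases that governs wall building. Transcripts that appear within minutes and are soon lost are often called early response genes, and many of them encode regulators whose messenger RNA is unstable.

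The libraries held between 790513 and 11265740 counts on annotated genes. The lowest was library I of HSAF-30, in which 93.7% of all counts fell on a pair of unannotated features, against 25.2% to 80.4% in the others. In library I, 27 of the 164 members had fewer than 10 counts and 7 had none. Library A of HSAF-0 had 19 members under 10 counts and 2 with none, and library K of HSAF-60 had 10 under 10 counts. No member had fewer than 10 counts in any HSAF-5 library, where the rule asked for high levels. The counts of members called at 30 min are therefore also given without library I, while fold changes of single genes come from all 12 libraries unless stated. The methods name a pair of sequencing platforms and do not say which library ran on which, so the part of the platform in any difference was not tested. Normalised counts are counts divided by median-of-ratios size factors. These are bulk samples, so fewer cells of a type and less RNA per cell cannot be told apart.

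The 164 genes together took 0.652% to 0.757% of the counts on annotated genes before HSAF, 3.57% to 4.08% after 5 min, 2.70% to 4.31% after 30 min and 0.964% to 1.22% after 60 min. The share was thus higher in every HSAF-5 and HSAF-30 library than in any HSAF-0 or HSAF-60 library. The median member was at 70.6 to 77.4 normalised counts in the HSAF-0 libraries and at 74.2 to 91.8 in those of HSAF-60. The ratio to HSAF-0 at 5 min had a median of 6.21 and a range of 4.01 to 41.7, as the rule required.

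**Figure D1:**
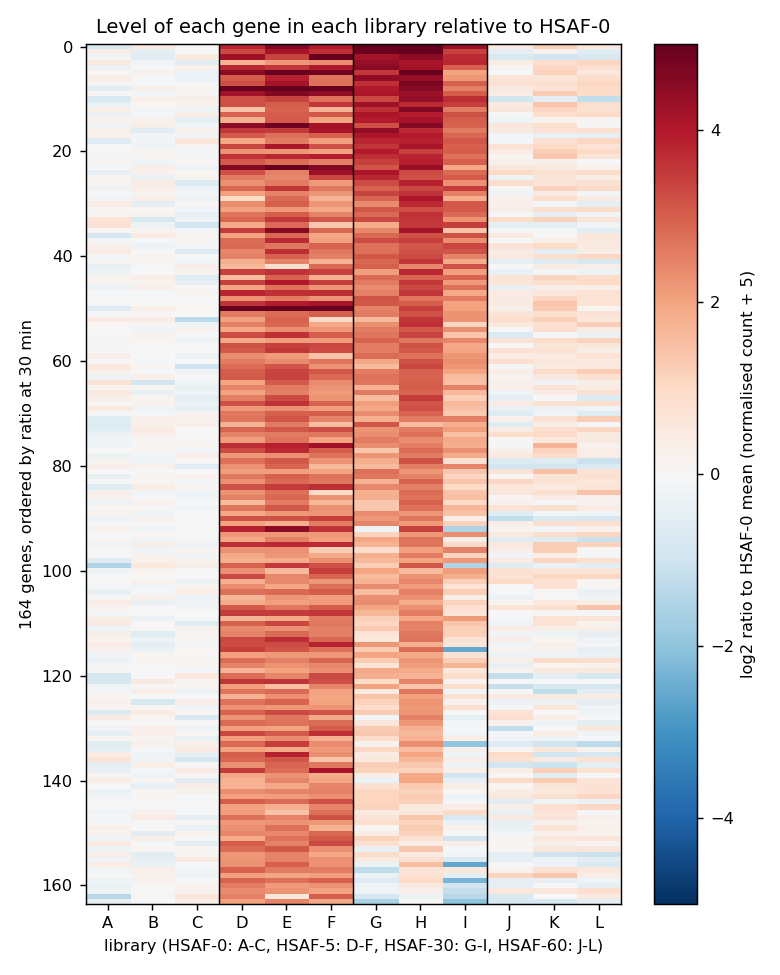
Each row is 1 of the 164 genes, ordered by the ratio at 30 min, and each column is 1 library; the colour is the log2 ratio to the HSAF-0 mean after 5 was added to the normalised counts, and values beyond 5 are drawn at 5. Columns D to F and the upper part of G to I are red, library I is paler than G and H for 131 genes, and J to L are close to the colour of A to C.

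At 30 min most of the genes were still high. With the quasi-likelihood test of edgeR and p-values adjusted by Benjamini-Hochberg over all genes tested, 123 of 164 members (75.0%) were called higher than in HSAF-0, a call being an adjusted p under 0.01 and a change of at least 2-fold. The background share of genes called higher in that comparison was 19.1% of 7582. No member was called lower by edgeR or by DESeq2, and 0 were lower at an unadjusted p under 0.05, whereas 15.2% of all genes tested were called lower. Without library I, 141 of 164 members (86.0%) were called higher against 19.6% of 7788 genes, and these held all 123 of the first fit. The median log2 fold change of the members was 2.41 with 12 libraries and 2.65 without library I, beside medians of -0.17 and -0.10 over all genes tested. The count fell to 0 by limma on the deposited FPKM with 1 added, with 63 members higher at an unadjusted p under 0.05. Those FPKM are scaled to all reads, the pair of unannotated features included. After rescaling to the same sum over annotated genes, limma called 111 members higher.

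The ratio to HSAF-0 at 30 min ran from 0.530 to 35.8 with a median of 4.64. It was 4 or more for 91 members, between 2 and 4 for 45 and under 2 for 28, and among the 28 it was under 1 for 5. All 3 HSAF-30 libraries were above all 3 HSAF-0 libraries for 124 members (75.6%), against a background of 32% of the 5452 genes past the level floor. With G and H alone the counts were 147 members (89.6%) against 36.6%. The 279 genes that stayed over 2-fold at 60 min had a median ratio of 12.1 at 30 min, and 247 of them were at 4 or more. The rule separates those genes from the members by their 60 min level, and the difference at 30 min was not tested.

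Library H was the highest of the HSAF-30 libraries for 123 members (75.0%), compared with 37.2% of all genes past the floor, and library I was the lowest for 131 (79.9%), compared with 44.3%. Within HSAF-5, library E was the highest for 92 members (56.1%, beside 39.2% of all genes past the floor), F for 56 (34.1%, beside 38.8%) and D for 16 (9.76%, beside 22.0%). Within HSAF-60, library K was the highest for 84 members (51.2%, beside 24.2% of all genes past the floor). The part that the low depth of library I had in its lower levels was not tested.

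**Figure D2:**
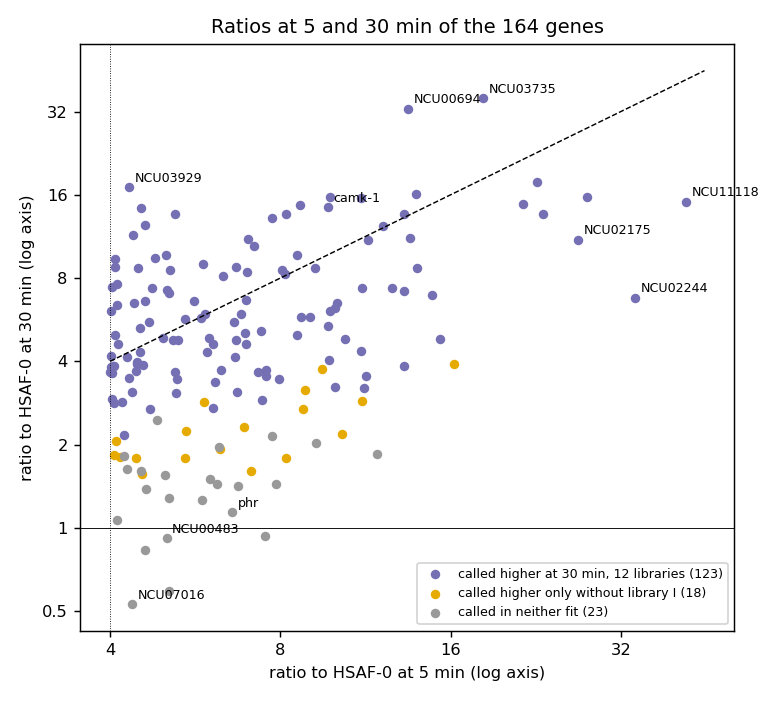
Each point is 1 of the 164 genes, with the ratio to HSAF-0 at 5 min on the x axis and at 30 min on the y axis, both on log axes. Colours mark the edgeR call at 30 min with 12 libraries (123), only without library I (18) or in neither fit (23). Points above the dashed line of equal ratios, 48 in number, were higher at 30 min than at 5 min; the dotted line is the threshold of 4.

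The members divided in their order of levels after 5 min. For 57 of 164 members the 30 min mean was at or below 0.5 of the 5 min mean (34.8%), beside a background of 20.7% of genes past the floor. For 8 members it was 2 times the 5 min mean or more, beside 20.3%, and for 48 it was above the 5 min mean. From 30 to 60 min the mean went to 0.5 or less for 134 members (81.7%), beside 23.4%, and it went to 2 times or more for 0. The rule fixed the 5 and 60 min levels, so these counts describe the course of the genes and carry no test.

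At 60 min the median ratio to HSAF-0 was 1.34, with 119 members above 1 and 45 below. It lay between 0.8 and 1.25 for 54 members, was above for 87 and below for 23. All HSAF-60 libraries were above all HSAF-0 libraries for 57 members (34.8%), beside 31.7% of genes past the floor. All were below for 14 members (8.54%), beside 26.4%. The background genes had no limit on their 60 min ratio, so nothing is read from these shares. In edgeR's fit no member was called at 60 min in either direction, with 28 higher and 6 lower before adjustment (p under 0.05). DESeq2 also called 0, and limma on the rescaled FPKM called 1 higher. The rule held the 60 min ratio between 0.5 and 2, so nothing is read from those calls or from the 161 members called higher at 5 min. The background shares were 9.38% higher and 3.53% lower at 60 min, and 9.72% higher and 2.27% lower at 5 min.

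The thresholds cut through a continuum. The members with the lowest ratios at 5 min were NCU10647 at 4.01 and NCU04045 at 4.01, while NCU06906 at 3.995 and pzl-1 at 3.98 fell just outside. At 60 min the members nearest the upper limit were NCU00306 at 1.99 and NCU09677 at 1.99, and NCU02138 at 2.001 and NCU09085 at 2.01 were outside. At the lower limit NCU08099 and NCU09395 were inside at 0.521 and 0.522, and NCU03500 and NCU07675 were outside at 0.489 and 0.379. The lowest members by level were NCU01869 and NCU05798, with highest group means of 54.6 and 56.5 normalised counts, and NCU05152 and NCU10063 were left out at 48.9 and 41.9.

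From their annotation, 74 of the 164 members were placed in role groups. The other 90 were left outside the groups, though some of them have an annotated function. A gene symbol in RefSeq (assembly NC12) was carried by 24 members, beside 1118 of all 9729 annotated genes. The annotation of 39 gave neither a named product nor a Gene Ontology term, and 40 had the term for an integral membrane protein. The shares of such genes among all annotated genes were not counted, so neither number is read as a trait of the members. The roles were grouped after the values had been seen, so the groups order the description only. Each role count at 30 min is read beside the share of all members called higher, 75.0%, or 86.0% without library I. Of the 90 members outside the groups, 63 were called, or 74 without library I.

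Among 11 phosphoinositide and lipid genes the 5 min ratio ran from 4.03 to 26.9. NCU02175, a phosphatidylinositol-specific phospholipase C, which makes the calcium-releasing second messenger, was at 33, 44 and 30 normalised counts before HSAF and at 974, 1333 and 975 after 5 min. It was at 353, 830 and 149 after 30 min and at 56, 51 and 42 after 60 min. Its 30 min libraries did not overlap those of HSAF-0, and the log2 fold change was 3.74 ± 0.52 (SE; edgeR adjusted p = 2.46e-05). The gene plc-1, which encodes another phospholipase C, was at 94, 122 and 127 before HSAF, 827, 671 and 882 after 5 min, 280, 540 and 272 after 30 min and 142, 224 and 210 after 60 min. Every HSAF-60 library of plc-1 was above every HSAF-0 library, and at 30 min the log2 fold change was 1.74 ± 0.35 (SE; edgeR adjusted p = 0.00079).

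The lipid kinase that makes the substrate of phospholipase C had a higher mean at 30 than at 5 min, while both phospholipase C genes had a lower one. The gene mss4, for the phosphatidylinositol-4-phosphate 5-kinase, was at 120, 125 and 81 before HSAF, 722, 920 and 624 after 5 min, 800, 1371 and 795 after 30 min and 106, 80 and 98 after 60 min. All HSAF-30 libraries lay above the HSAF-0 range, with a log2 fold change of 3.24 ± 0.36 (SE; edgeR adjusted p = 2.73e-06), and the HSAF-60 libraries overlapped HSAF-0. Only library H was above the HSAF-5 range of mss4, and the difference between 30 and 5 min was not tested. The acyl-CoA synthetase NCU03929, which activates fatty acids, was at 113, 73 and 54 before HSAF, 276, 380 and 430 after 5 min and 1733, 1429 and 1157 after 30 min, and came to 105, 149 and 173 after 60 min. Its ratio was 4.32 at 5 min and 17.0 at 30 min. NCU05237, annotated to the complex that makes inositol phosphoceramide, had ratios of 4.39, 11.5 and 1.90 at 5, 30 and 60 min. NCU03137, whose product carries the annotation of a phosphatidate phosphatase, had ratios of 4.03, 7.40 and 1.21. NCU03258, an oxysterol-binding protein, had ratios of 4.47, 3.99 and 1.58. The glycerophosphodiester phosphodiesterase NCU10237 was not called at 30 min, with a log2 fold change of 0.79 ± 0.33 (SE; edgeR adjusted p = 0.0563), nor without library I (log2 fold change 0.99; edgeR adjusted p = 0.0177). In all, 9 of 11 genes of the group were called higher at 30 min, or 10 without library I, and 5 were higher at 30 than at 5 min.

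All 7 kinase and phosphatase genes were called higher at 30 min in both fits, beside 75.0% of all members (86.0% without library I). The gene camk-1, which encodes a calcium/calmodulin-dependent protein kinase, was at 869, 1158 and 1224 before HSAF and at 10135, 8910 and 12707 after 5 min. It was at 20426, 14566 and 12089 after 30 min and at 1496, 2807 and 1938 after 60 min. Each HSAF-60 library of camk-1 remained above each HSAF-0 library, and the 30 min log2 fold change was 3.90 ± 0.38 (SE; edgeR adjusted p = 7.95e-07). The gene mek-1, for the MAP kinase kinase of the wall integrity pathway, was at 508, 549 and 545 before HSAF, 4451, 6187 and 5173 after 5 min, 3177, 4565 and 2090 after 30 min and 876, 917 and 648 after 60 min. Its log2 fold change at 30 min was 2.68 ± 0.36 (SE; edgeR adjusted p = 1.62e-05). NCU06252, which the annotation lists as a phosphatase that inactivates MAP kinases, was higher at 30 than at 5 min, with 27, 20 and 26 before HSAF, 239, 196 and 164 after 5 min and 306, 422 and 224 after 30 min. By 60 min NCU06252 was at 30, 30 and 24.

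Of the other kinases, stk-34 had ratios of 13.6, 11.1 and 1.71 at 5, 30 and 60 min. The gene prd-4, for the checkpoint kinase that links DNA damage to the circadian clock in N. crassa, had ratios of 9.99, 6.26 and 1.33. For ck-1b, a casein kinase gene, they were 4.06, 3.83 and 1.02. NCU00900, annotated as a regulator of protein phosphatase 4, had ratios of 9.98, 3.22 and 1.08, and its HSAF-30 libraries were uneven at 56, 274 and 64 normalised counts.

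Genes for GTPases and their regulators were lower at 30 than at 5 min in 6 of 6 cases, and all 6 were called higher than HSAF-0 at 30 min. Of all 164 members only 48 were above their 5 min mean at 30 min. The rule chose members for a high 5 min mean, so the direction is not read as a trait of the group. The gene gna-2, for a heterotrimeric G protein alpha subunit, had ratios of 8.71, 5.77 and 1.40 at 5, 30 and 60 min. NCU01911, the Sec2 exchange factor of exocytosis, was at 21, 27 and 30 before HSAF, 328, 368 and 321 after 5 min, 127, 420 and 123 after 30 min and 19, 24 and 21 after 60 min. The Rab-type GTPase-activating protein gyp3 (NCU04514) had ratios of 5.24, 3.07 and 0.998.

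**Figure D3:**
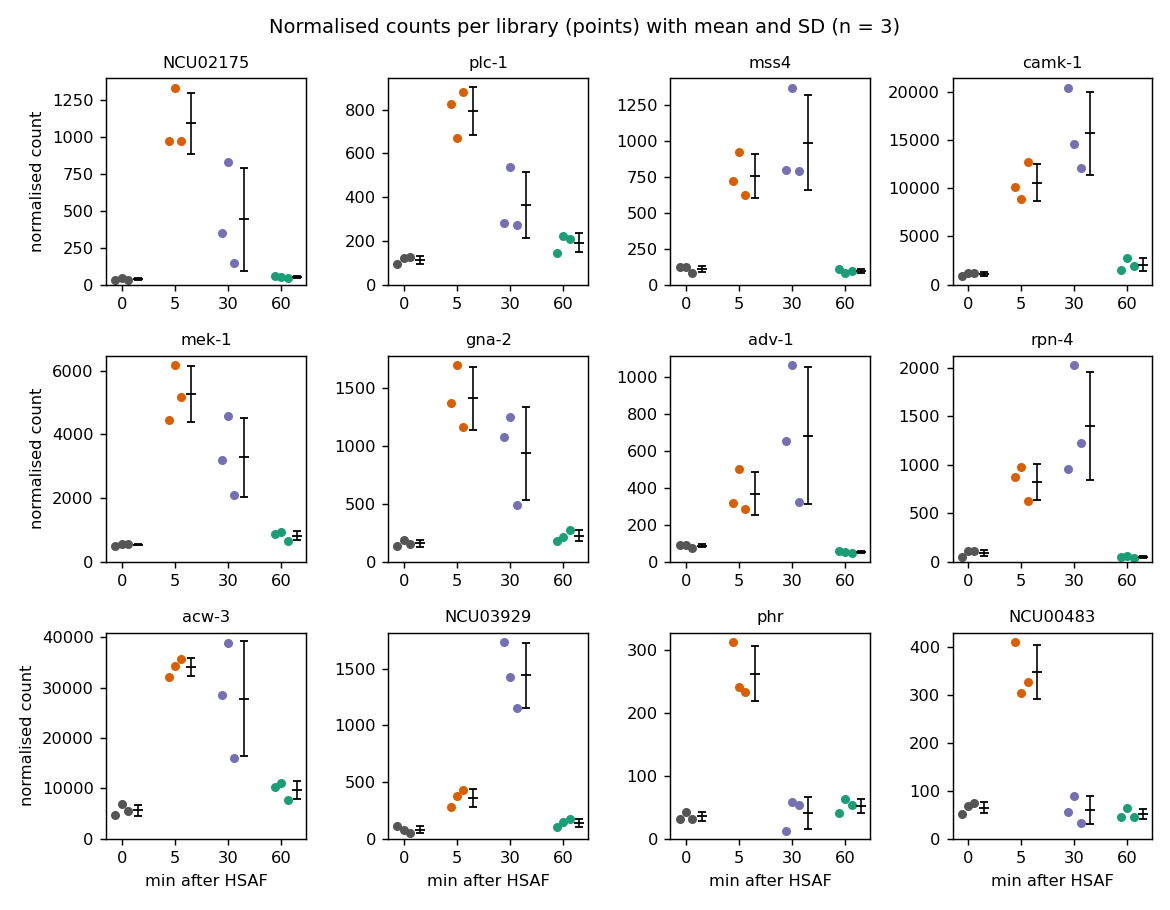
Normalised counts of 12 of the 164 genes against minutes after HSAF; each point is 1 library and the black bar beside each group is the mean with its SD (n = 3). At 30 min camk-1 and NCU03929 were above their 5 min points on average, NCU02175 was between the 5 and 0 min points, and phr and NCU00483 overlapped the 0 min points.

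The 14 transcription and chromatin genes had 30 min ratios from 0.916 to 14.7, and 9 of 14 were called higher, or 12 without library I. The gene rpn-4 encodes a C2H2 factor, and its yeast namesake activates proteasome genes. It was at 51, 110 and 111 before HSAF, 869, 979 and 623 after 5 min, 958, 2028 and 1221 after 30 min and 46, 63 and 36 after 60 min, with a 30 min log2 fold change of 3.98 ± 0.42 (SE; edgeR adjusted p = 1.97e-06). The gene adv-1, for a transcription factor needed for hyphal fusion and sexual development, was at 92, 88 and 76 before HSAF, 316, 501 and 287 after 5 min, 653, 1066 and 325 after 30 min and 60, 53 and 46 after 60 min. All HSAF-60 libraries of adv-1 were below all HSAF-0 libraries, and its 30 min log2 fold change was 3.09 ± 0.43 (SE; edgeR adjusted p = 2.32e-05). The clock-controlled gene ccg-8 had ratios of 8.20, 13.7 and 1.59.

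The other factor genes ranged at 30 min from near the starting level to well above it. NCU00483, a zinc-binding nucleic acid-binding protein, was at 52, 68 and 75 before HSAF, 412, 305 and 328 after 5 min, 56, 90 and 32 after 30 min and 46, 65 and 46 after 60 min. Its HSAF-30 libraries overlapped those of HSAF-0, with a log2 fold change of 0.02 ± 0.37 (SE; edgeR adjusted p = 0.969). The zinc factor gene NCU09615 and tah-1 were called only without library I, with log2 fold changes of 1.02 and 1.35 with all libraries and 1.32 and 1.74 without it. NCU03699, a zinc finger protein, had the highest 5 min ratio of the group, with 30, 44 and 32 before HSAF, 912, 1188 and 716 after 5 min, 374, 960 and 309 after 30 min and 55, 66 and 38 after 60 min. NCU01886, also a zinc factor, had ratios of 7.32, 3.67 and 0.927, and the C2H2 gene NCU04022 had 4.41, 6.50 and 1.37. NCU01475, a Mediator subunit, had ratios of 4.06, 3.84 and 1.58.

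All 7 genes of the wall and secreted protein group were called higher at 30 min in both fits, beside 75.0% of all members (86.0% without library I). The 7 include NCU02137, whose product name, a phosphatidylinositol:UDP-GlcNAc transferase (PIG-C), is not that of a wall or secreted protein. The gene acw-3, for an anchored cell wall protein, had the highest 5 min level of the members on the length-corrected scale, a share of the summed FPKM of annotated genes in parts per 1000000, with 704 before HSAF, 3119 after 5 min, 3032 after 30 min and 1302 after 60 min. In normalised counts acw-3 was at 4643, 6821 and 5609 before HSAF, 32062, 34375 and 35661 after 5 min, 28555, 38764 and 16008 after 30 min and 10362, 11102 and 7700 after 60 min. Every library after the addition was above the HSAF-0 range. NCU09117, a wall glucanase of the Crf1 type, had ratios of 10.1, 6.48 and 0.782, and the glucanosyltransferase gene NCU05974, for Mwg1, had 5.43, 5.67 and 1.37. The subtilisin-like protease gene NCU06949 was at 102, 109 and 108 before HSAF, 1248, 1244 and 1275 after 5 min, 348, 643 and 171 after 30 min and 105, 110 and 102 after 60 min. The HSAF-0 and HSAF-60 libraries of NCU06949 overlapped. The carboxylesterase NCU03978, which is annotated as extracellular, was at 11, 8 and 20 before HSAF, 334, 178 and 691 after 5 min, 313, 388 and 235 after 30 min and 6, 4 and 5 after 60 min.

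Trafficking and transport genes held members that were high at 30 min beside others that were not called. The arrestin-domain gene NCU08967 was at 27, 19 and 18 before HSAF, 66, 195 and 81 after 5 min, 328, 639 and 149 after 30 min and 34, 48 and 39 after 60 min. The other arrestin-domain gene, NCU05721, was at 33, 28 and 20, then 151, 211 and 107, then 30, 73 and 32, and lastly 21, 47 and 34, and at 30 min it was not called in either fit. Arrestin-domain proteins guide the removal of membrane proteins in other fungi. The COPII coat gene NCU02391, for Sec24, had ratios of 4.09, 8.78 and 1.64, and NCU01854, an ESCRT-III component that sorts cargo to the vacuole, had 6.95, 4.64 and 1.45. Of 8 trafficking genes, 6 were called higher at 30 min, or 7 without library I.

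Among 8 membrane transporters, 5 were called higher at 30 min in each fit. NCU07546, a multidrug resistance transporter, was at 78, 51 and 62 before HSAF, 479, 420 and 522 after 5 min, 442, 587 and 693 after 30 min and 107, 124 and 88 after 60 min. Its 30 min log2 fold change was 3.19 ± 0.31 (SE; edgeR adjusted p = 7.71e-07), and all its HSAF-60 libraries were above those of HSAF-0. The ABC transporter NCU04021 had ratios of 4.48, 8.72 and 0.779. The MFS multidrug transporter NCU00306, the member closest to the upper limit at 60 min, was at 258, 1269 and 240 in HSAF-30, of which G and I lay within the HSAF-0 range of 222 to 414. The mitochondrial ornithine carrier gene arg-13 had ratios of 5.83, 1.26 and 0.806.

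Of 7 genes for ubiquitin and proteolysis, none was higher at 30 than at 5 min in group mean, and 6 were called higher than HSAF-0 at 30 min, or 7 without library I. Most members were likewise lower at 30 than at 5 min, with 48 of 164 higher. NCU02400, a metacaspase, had ratios of 7.39, 5.14 and 0.737. The camk-1 neighbour NCU09122, a ubiquitin-conjugating enzyme, had 4.04, 2.93 and 1.33. Of 6 genes for translation and RNA processing, 5 were called at 30 min, or 6 without library I. NCU09004, for initiation factor eIF6, which keeps the large ribosomal subunit from joining too early, was at 869, 766 and 882 before HSAF, 15308, 21088 and 18110 after 5 min, 13858, 16721 and 6895 after 30 min and 1099, 2016 and 1602 after 60 min. On the length-corrected scale its share was 188 parts before HSAF and 2992 after 5 min. The tRNA ligase gene NCU04410 had ratios of 7.18, 10.5 and 1.20.

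**Figure D4:**
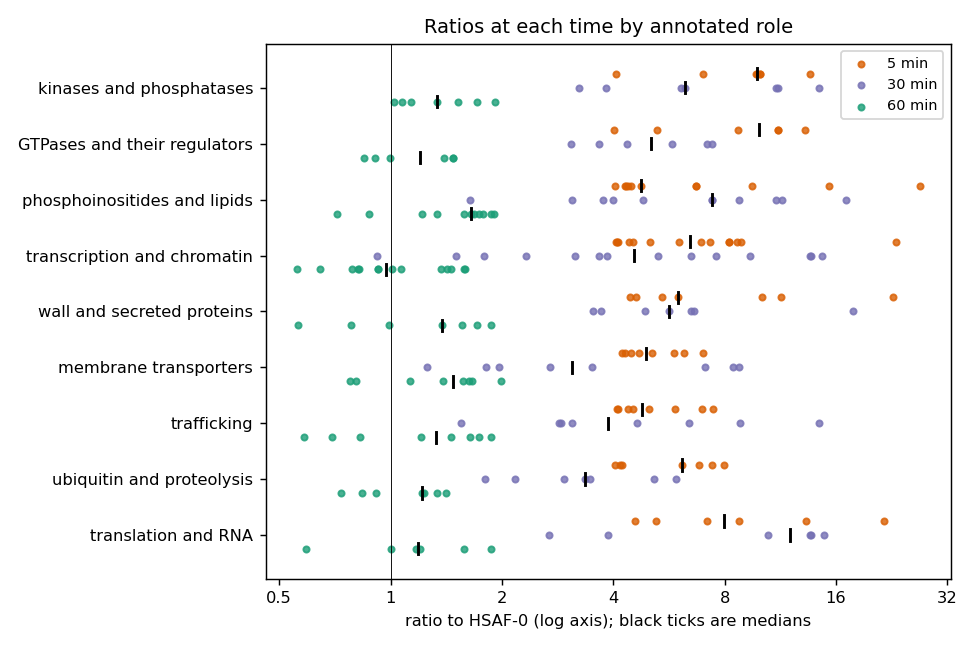
Ratios to HSAF-0 at 5, 30 and 60 min on a log axis for the 74 genes placed in a role group, by group. Each point is 1 gene and black ticks are medians. The 30 min medians ran from 3.09 for membrane transporters to 12.1 for translation and RNA, and the rule kept the 5 min points at 4 or more and the 60 min points between 0.5 and 2.

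Genes outside the role groups included the extremes. NCU11118, a hypothetical protein, had the largest 5 min ratio, with 81, 146 and 128 before HSAF, 4624, 4697 and 6078 after 5 min, 1914, 2955 and 699 after 30 min and 163, 194 and 234 after 60 min. NCU02244, a C2 domain protein of the kind that can bind calcium and lipids, was at 21, 44 and 37, then 1398, 1369 and 1207, then 214, 416 and 155, and lastly 42, 93 and 38. Its ratio went from 33.9 at 5 min to 6.80 at 30 min. NCU00899, an integral membrane protein by annotation, had ratios of 27.9, 15.8 and 1.54. Other members were also in the 12 highest at 5 min with a mean of at least 200 normalised counts. Of these, NCU09245, annotated to lipid metabolism and counted in the lipid group above, had ratios of 15.3, 4.82 and 1.78. NCU02390 had 14.8, 6.98 and 1.88 and NCU06991 had 13.9, 8.70 and 0.858. NCU02773, at 7, 147 and 0 in HSAF-30, was called only without library I.

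The highest 30 min ratios belonged to NCU03735, NCU00694 and NCU03978. NCU03735 was at 105, 239 and 184 before HSAF, 2553, 4454 and 2899 after 5 min, 7605, 8174 and 3610 after 30 min and 245, 405 and 252 after 60 min. NCU00694 was at 43, 22 and 33, then 366, 656 and 483, then 1130, 2152 and 395, and lastly 23, 39 and 20. Both were annotated as integral membrane proteins, and their log2 fold changes at 30 min were 5.26 ± 0.49 and 5.36 ± 0.60 (SE; edgeR adjusted p = 5.38e-07 and 3.07e-06).

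The lowest 30 min ratios were 0.530 for NCU07016, 0.591 for NCU08901 and 0.828 for NCU00980, none with a known role. Counts of NCU08901 were low, at 0, 8.9 and 15.4 before HSAF, 69.6, 14.6 and 100.5 after 5 min and 2.3, 5.9 and 0 after 30 min. The added 5 therefore weighs on its ratio and its place in this order. Its log2 fold change at 30 min was -1.18 ± 0.99 (SE, edgeR adjusted p = 0.335). NCU07016 was at 78, 102 and 125 before HSAF, 423, 568 and 397 after 5 min, 30, 103 and 21 after 30 min and 58, 56 and 70 after 60 min. It was not called with 12 libraries (log2 fold change -0.77 ± 0.45, SE; edgeR adjusted p = 0.16), and without library H it was the only member called lower.

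Members with symbols from light and development responses differed from one another at 30 min. The photolyase gene phr, which repairs ultraviolet damage to DNA, was at 32, 43 and 32 before HSAF, 312, 240 and 233 after 5 min, 12, 59 and 53 after 30 min and 41, 64 and 53 after 60 min. Its log2 fold change at 30 min was 0.18 ± 0.46 (SE; edgeR adjusted p = 0.759). The blue light-induced gene bli-4 was at 950, 1690 and 573 in HSAF-5 and at 149, 447 and 96 in HSAF-30, where it overlapped the 149, 99 and 86 of HSAF-0. The hyphal fusion gene ham-6 was at 56, 61 and 49 before HSAF, 246, 331 and 275 after 5 min, 616, 738 and 341 after 30 min and 48, 76 and 50 after 60 min. The gene acon-2, annotated as a cyclic AMP phosphodiesterase, had ratios of 7.74, 13.2 and 0.807, and both ham-6 and acon-2 were called higher at 30 min in both fits.

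A further 5 members with symbols were metabolic, peroxisomal or of the ubiquitin system. The gene spe-1, for ornithine decarboxylase, which starts polyamine synthesis, had ratios of 4.28, 4.14 and 0.819. For nic-5, annotated as an enzyme of NAD synthesis, they were 4.07, 2.83 and 1.34. The peroxisomal import genes pex13 and pex4 had 30 min ratios of 8.11 and 2.17 after 6.34 and 4.23 at 5 min. The F-box gene fwd-2 had ratios of 6.12, 3.36 and 0.835. All 5 were called higher at 30 min in both fits.

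Some members lay side by side in the genome. In the gene order of assembly NC12, 15 pairs of direct neighbours involved 28 of the 164 members. Of 210 direct neighbours of members that were past the level floor, 50 (23.8%) were at least 4-fold higher at 5 min, beside 112 of 370 (30.3%) for the 279 genes that stayed high and 583 of 6958 (8.38%) for all genes past the floor. These shares were not tested. Runs of 3 were NCU00287, NCU00288 and tah-1 on chromosome III, with 30 min ratios of 0.936, 1.07 and 2.32, and NCU09615, NCU09616 and NCU09617 on chromosome II, with 1.79, 1.51 and 3.20. Neighbours could also differ, as with camk-1 and NCU09122 on chromosome I, at 14.4 and 2.93. The annotated spans overlapped for NCU01559 with NCU01560 and for ck-1b with NCU04006. No source used here states that the libraries kept strand, so reads of those pairs cannot be told apart. Chromosome I held 53 of the members and 1443 of the genes past the floor.

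Other genes of the same pathways were taken from lists, some of whose genes are members. The rule fixed the members' 5 and 60 min levels, so counts without them are given too. Of 24 calcium signalling genes looked for, 15 were found by symbol or locus tag, and 3 of the 15 were members (camk-1, plc-1 and NCU02175). The list had 7 genes called higher and 0 lower at 5 min, 8 and 0 at 30 min, and 2 and 0 at 60 min, with 1 lower at an unadjusted p under 0.05 at each time and 0 lower by DESeq2. Of its 12 non-members, the higher calls numbered 4 at 5 min, then 5 at 30 min, then 2 at 60 min. The share of the 15 called higher at 30 min was 53.3%, beside 19.1% of all genes tested. It was 46.7% at 5 min, beside 9.72%, with the 3 members among the called genes, and 13.3% at 60 min, beside 9.38%. NCU02175 and NCU01504 were put in the list after the study's own results on these samples were known, so they are not independent evidence of its direction. Among the non-members, the calcium pump gene nca-2 was at a mean of 301 normalised counts before HSAF, 882 after 5 min, 8510 after 30 min and 464 after 60 min, and cnb-1, for the regulatory subunit of calcineurin, was at 734, 1050, 5927 and 1214. Their 30 min log2 fold changes were 4.80 ± 0.38 and 3.06 ± 0.35 (SE; edgeR adjusted p = 1.68e-07 and 4.25e-06).

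In the wall integrity and fusion MAP kinase list, 13 of 18 genes looked for were found, and mek-1 and adv-1 were members. The list had 3 genes called higher and 0 lower at 5 min, the same numbers at 30 min, and 0 called at 60 min, where 0 were higher and 3 lower with p under 0.05 before adjustment. DESeq2 called 1 gene lower at 30 min and 1 at 60 min. Among its 11 non-members, 1 was called higher at 5 min and 1 at 30 min. The share of the 13 called higher at 30 min was 23.1% (4 genes without library I), near the 19.1% of all genes tested. At 5 min 23.1% stood beside 9.72%, with mek-1 and adv-1 among the called genes. The MAP kinase gene mak-1, which acts after mek-1, was at means of 297 before HSAF, 344 after 5 min, 1921 after 30 min and 240 after 60 min. At 30 min its log2 fold change was 2.75 ± 0.32 (SE; edgeR adjusted p = 4.49e-06), and at 5 min it was 0.26 ± 0.30 (SE; edgeR adjusted p = 0.556).

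Of 36 wall synthesis and remodelling genes, 35 were tested and acw-3 was a member. The list took only genes whose symbol begins with a set prefix, so it covers a part of the wall genes. It held no glucan synthase gene and lacked some wall genes whose deletion the study linked to HSAF resistance. There were 12 called higher and 0 lower at 5 min (0 lower with p under 0.05 before adjustment, and 0 by DESeq2), 12 and 2 at 30 min, and 8 and 2 at 60 min. Among its 35 non-members, 11 were called higher at 5 min and 11 at 30 min. Its share of 34.3% called higher at 30 min (13 genes without library I) stands beside 19.1% of all genes tested. At 5 min 34.3% stood beside 9.72%, and at 60 min 22.9% stood beside 9.38%. The differences were not tested. In the heat and oxidative stress list of 16, which held no member, 0 were called higher and 1 lower at 5 min, with 2 higher and 5 lower before adjustment (p under 0.05), and 0 higher and 4 lower by DESeq2. It had 1 higher and 3 lower at 30 min and again at 60 min. The 18.8% lower at 30 min was near the 15.2% of all genes tested. At 60 min 18.8% lower stood beside 3.53% of all genes tested, and at 5 min 6.25% lower stood beside 2.27%. These differences were not tested. Without library I, 2 genes of the stress list were called lower at 5 min and 1 of the wall list at 30 min. Of 7 cytosolic ribosomal protein genes, 0 were called at any time by edgeR with 12 libraries, with 6 lower at 60 min before adjustment (p under 0.05) and 1 by DESeq2. Without library I, edgeR called crp-4 lower at 60 min. Of 5 conidiation genes, used as markers of another developmental state, 3 were tested and 0 were called at 5 min, with 1 higher at an unadjusted p under 0.05 and 0 by DESeq2. Their levels were low, at means of 64.0 for eas and 80.6 for con-8 in HSAF-0, and con-6, con-10 and con-13 were under 4 in HSAF-0 and HSAF-5. Only con-10 of the 5 was called at 30 min, at 30, 9 and 0 normalised counts. Their part in the members' levels was not tested.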

How the data were processed

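RNA-seq was done in 12 libraries, 3 at each time. The authors trimmed reads with Trimmomatic and deposited whole-number counts and FPKM for 11409 features, 1680 of them unannotated. No source used here names the aligner, the counter or the build. The deposited counts were used for all main results and the deposited FPKM, which the authors scaled to total reads, for length-corrected shares and as an alternative. Counts on the 9729 annotated genes were divided by median-of-ratios factors from 5845 genes without a 0. edgeR 4.0.16 (TMM factors, filterByExpr with a minimum of 10, quasi-likelihood test, all 12 libraries, 1 term per time) gave fold changes, with Benjamini-Hochberg adjustment. The SE is the log2 fold change divided by the root of its F statistic. DESeq2 1.42.0 and limma 3.58.1 were alternatives. R 4.3.3 and Python 3.11.15 were used, and the fits were tested on simulated data.

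The members and lists were chosen with earlier results of these data known. The genes named were the 12 highest at 5 min with an HSAF-5 mean of at least 200, members with a symbol or a regulatory, wall, lipid, transport or trafficking role (some not reported here), the 3 highest and lowest at 30 min, those at the thresholds, and listed pathway genes. Gene names came from RefSeq, in which all 9729 locus tags were found, and product descriptions from the study's annotation, which held 163 members. Promoter and protein sequences were not analysed here. Counting reads limits precision most in library I, and the SE values from the edgeR fit include the spread between libraries.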

Additional observations from a re-analysis of the deposited data

Results flagged for a closer look

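Among the 1680 unannotated features of the count table, which the comparisons above leave out, 175 were past the level floor and 10 had the same course as the 164 genes, at least 4-fold higher at 5 min and within 2-fold of HSAF-0 at 60 min. That is 5.71% of those past the floor, beside 3.01% of annotated genes, and the difference was not tested. The highest 5 min ratio was 11.63, for newGene_940, which was at 6.3, 4.8 and 8.8 normalised counts before HSAF, 147, 105 and 139 after 5 min, 68.1, 58.7 and 53.3 after 30 min and 2.8, 6.2 and 7.6 after 60 min. No HSAF-5 or HSAF-30 library of newGene_940 overlapped the HSAF-0 range. Groups of 3 libraries are too small for the test of single outlying samples, so none was made.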

How the results depend on the processing

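No paired analysis was possible because the library letters carry no number that time points have in common. The number of members called higher at 30 min was 123 and stayed between 119 and 127 with other scalings, DESeq2, no filter or the groups compared alone, and between 115 and 141 when single libraries were left out. It was 0 by limma on log2(FPKM + 1), 17 with 0.1 added and 0 without the filter, where 63, 63 and 47 members were higher at an unadjusted p under 0.05; with FPKM rescaled over annotated genes, an alternative chosen after seeing the data, it was 111. Members called lower numbered 0, or 0 to 1 with single libraries left out, the 1 being NCU07016 without library H. Genes of the pathway lists called at any time numbered 39, with 5, 9 and 0 by the same limma fits, 41 after rescaling and 31 to 51 with single libraries left out. The rule gave 164 genes, 265 with a 5 min ratio of 3, 87 with 6, and 146 to 183 without single libraries; reading the floor after 5 was added gave 165 (chosen after seeing the data). Members at 2 times or more at 30 min of the 5 min level numbered 8, or 7 to 17 (17 without library E, 14 without library I), those at 0.5 or less 57, or 42 to 78, and those at 0.5 or less from 30 to 60 min 134, or 109 to 140. No called fold change of the 92 genes compared changed sign under any alternative run. Depth limits library I most.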
